A study of Homo sapiens with 6 samples.

Results

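Semaphorins, plexins and neuropilins are a signalling system of ligands, receptors and co-receptors. Protein-coding genes of GENCODE release 29 were taken by symbol, and 31 of the 58735 rows of the count table belonged to the family, of which 20 encode semaphorins, 9 plexins and 2 neuropilins. Of these 31 genes, 24 had enough reads to be tested and 7 did not. The libraries came from HCT116, an established human colorectal carcinoma cell line. The SETD8 group (3 libraries) overexpressed SETD8, an enzyme that methylates lysines and is listed in the table as KMT5A, and the Vector group (3 libraries) carried the empty vector and is given as WT in the labels. Both groups were lentivirally transduced and selected with puromycin as stable clones according to one label, whereas the design text speaks of transfection with plasmids. No source used here gives the number of clones in a group, the promoter of the construct, the time since transduction or whether replicates were separate cultures, so p-values measure the spread between these libraries, which may be technical. The series is about methylation of the coactivator YAP by SETD8, and the comparison asks which transcripts differ with SETD8 overexpression.

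Semaphorins carry a sema domain and act as guidance cues, first known for repelling growing axons and later for roles in vessels, immune cells and epithelial tumours. Class 3 members are secreted, classes 4, 5 and 6 span the membrane, and the single class 7 member is held by a lipid anchor. Plexins are their receptors and carry an intracellular domain that acts on small Ras-family GTPases, while neuropilins bind most class 3 semaphorins and also vascular endothelial growth factor (VEGF), and pass the signal on through plexins.

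SETD8 libraries held lower counts of several plexins and semaphorins. Of 24 tested members, 8 fell and 0 rose (edgeR quasi-likelihood test, Benjamini-Hochberg adjusted over all genes tested, threshold 0.05). Among all 14370 genes tested, 4.75% were called lower and 3.08% higher. These were 682 lower and 443 higher genes, against 505 lower and 792 higher when library totals replaced TMM scaling, under which 7 members were lower and 0 higher. The genes that fell were the plexins PLXNA1, PLXNB2 and PLXND1, the semaphorins SEMA3A, SEMA3B, SEMA4B and SEMA7A, and the neuropilin NRP2. Their log2 fold changes ran from -1.18 for NRP2 to -0.41 for PLXND1. At an unadjusted p under 0.05, 15 members were lower and 0 higher, against 13.8% and 12.3% of all tested genes. In the adjusted tests 0 were called higher with DESeq2 or limma-voom, against 5.14% and 3.26% of all genes. The median log2 fold change of the 24 tested members was -0.4, against 4.7e-04 over all tested genes. The family was chosen with earlier results of these data known, so setting it beside all genes is no independent test.

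The libraries did not separate evenly by group. Library totals were 17056672 to 18785454 counts in the SETD8 group and 17187722 to 20471843 in the Vector group. The first principal component of log2 CPM (counts scaled to library size) held 46.4% of the variance and placed the SETD8 libraries between -23.8 and -16.5. It placed Vector replicate 1 at -0.94, nearer to the SETD8 libraries than to the other Vector libraries, at 25.7 and 39.3. Vector replicate 1 was the lowest Vector library in 18 of the 24 tested members and in 8 of the 8 that fell, against 35.8% of all tested genes. The 35.8% covers genes that differed in either direction, and the share among all genes called lower was not computed. KMT5A averaged 69.0 ± 5.63 CPM in SETD8 libraries and 49.1 ± 4.27 CPM in Vector libraries (SD, n = 3 each; log2 fold change 0.49, adjusted p = 0.0156). Of 8 markers of colorectal epithelium, 7 were tested, 1 was called lower (CDH1) and 1 higher (CLDN4), VIL1 had at most 4 counts, and their summed level was 11600 to 13100 CPM in SETD8 libraries and 11000 to 13600 CPM in Vector libraries. Summed levels of 8 markers each were 1.34 to 2.17 CPM in SETD8 libraries and 1.45 to 2.82 CPM in Vector libraries for endothelium, 3.5 to 4.83 and 4.85 to 7.32 CPM for fibroblasts, 1.06 to 1.81 and 1.9 to 3.19 CPM for immune cells, and 18.1 to 22.7 and 15.2 to 20.6 CPM for neurons, SETD8 range first in each pair. Genes at 0 counts in each library were EMCN for endothelium, COL1A2, DCN and PDGFRA for fibroblasts and PTPRC and CD3E for immune cells. For neurons they were STMN2, ELAVL4 and GAP43. Tested non-epithelial markers were VWF for endothelium, COL1A1 for fibroblasts, ITGAM for immune cells and MAP2 and TUBB3 for neurons, and none was called. MAP2 averaged 18.4 and 16.1 CPM in SETD8 and Vector libraries and COL1A1 4.11 and 5.48 CPM. TUBB3 averaged 1.98 and 1.74 CPM, VWF 1.07 and 1.3 CPM and ITGAM 0.864 and 1.51 CPM, SETD8 libraries first. For fibroblast and immune markers the summed ranges did not overlap and SETD8 was lower, and their part in the results was not tested. COL1A1 held most of the fibroblast sum, and its groups overlapped (SETD8 replicate 3 at 4.65 CPM, Vector replicate 1 at 4.52 CPM). COL1A1 and ITGAM were not called by edgeR (adjusted p = 0.236 and 0.209). In RNA from whole cultures, fewer cells expressing a gene and less RNA per cell cannot be told apart.

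The sequences before the RefSeq starts of 4 of the genes that fell are shown because each was called lower in SETD8 libraries. They are the 250 bases before the RefSeq start (GRCh38.p14), 5′ to 3′ on the gene's strand, for each gene that fell with a RefSeq start within 1000 bases of its GENCODE start. SEMA7A is at chr15:74433959-74434208 (minus strand), SEMA3B at chr3:50267402-50267651 (plus strand), PLXND1 at chr3:129606677-129606926 (minus strand) and NRP2 at chr2:205682251-205682500 (plus strand). The RefSeq start lay 511 bases inside the GENCODE gene for NRP2, 142 for PLXND1, 94 for SEMA3B and 0 for SEMA7A. The NRP2 stretch thus lies wholly within the GENCODE gene, and those of PLXND1 and SEMA3B lie partly within theirs. Capitals mark GGGCGG (the GC box) or GGAATG (a motif of TEAD factors, the DNA-binding partners of YAP) on either strand.
SEMA7A: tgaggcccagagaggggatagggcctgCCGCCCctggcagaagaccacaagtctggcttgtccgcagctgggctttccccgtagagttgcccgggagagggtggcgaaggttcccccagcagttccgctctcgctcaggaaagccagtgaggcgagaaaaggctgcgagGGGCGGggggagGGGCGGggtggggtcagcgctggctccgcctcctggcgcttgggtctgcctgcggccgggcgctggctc
SEMA3B: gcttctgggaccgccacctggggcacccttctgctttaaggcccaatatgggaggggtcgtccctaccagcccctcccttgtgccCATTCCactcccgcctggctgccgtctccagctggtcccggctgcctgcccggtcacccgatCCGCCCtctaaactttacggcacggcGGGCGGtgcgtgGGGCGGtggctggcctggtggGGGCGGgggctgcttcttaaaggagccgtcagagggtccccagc
PLXND1: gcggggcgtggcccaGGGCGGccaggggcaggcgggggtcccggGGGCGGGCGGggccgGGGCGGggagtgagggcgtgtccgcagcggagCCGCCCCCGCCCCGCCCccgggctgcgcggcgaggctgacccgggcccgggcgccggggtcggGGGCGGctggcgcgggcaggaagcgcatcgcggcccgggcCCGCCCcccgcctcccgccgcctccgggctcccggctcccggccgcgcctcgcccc
NRP2: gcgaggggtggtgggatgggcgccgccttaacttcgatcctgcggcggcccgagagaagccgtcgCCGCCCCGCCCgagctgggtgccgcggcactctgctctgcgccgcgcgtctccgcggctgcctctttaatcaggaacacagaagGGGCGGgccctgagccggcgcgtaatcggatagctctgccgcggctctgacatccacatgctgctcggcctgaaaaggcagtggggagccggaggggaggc
The GC box occurred 3 times in the stretch of SEMA7A, 4 times in that of SEMA3B, 9 times for PLXND1 and 3 times for NRP2, overlapping matches counted. GGAATG occurred once, in the stretch of SEMA3B, and lay 165 bases before the RefSeq start. Across the 300-base windows of RefSeq, which add 50 bases after the start, the GC box was in 11 of 14 windows of 7 genes that fell (78.6%), in 14 of 19 windows of 13 tested members that were not called (73.7%) and in 45.0% of all 35116 windows. GGAATG was in 2 of 14 windows (14.3%), 3 of 19 (15.8%) and 14.0% of all windows. CACGTG, an E-box, was in 0 of 14, 2 of 19 and 7.26% of windows, TATAAA in 0 of 14, 1 of 19 and 11.5%, and TGACG in 6 of 14, 2 of 19 and 24.6%, all on both strands. Windows of the same gene can overlap. A match is a string of letters and not a bound site.

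**Figure D1:**
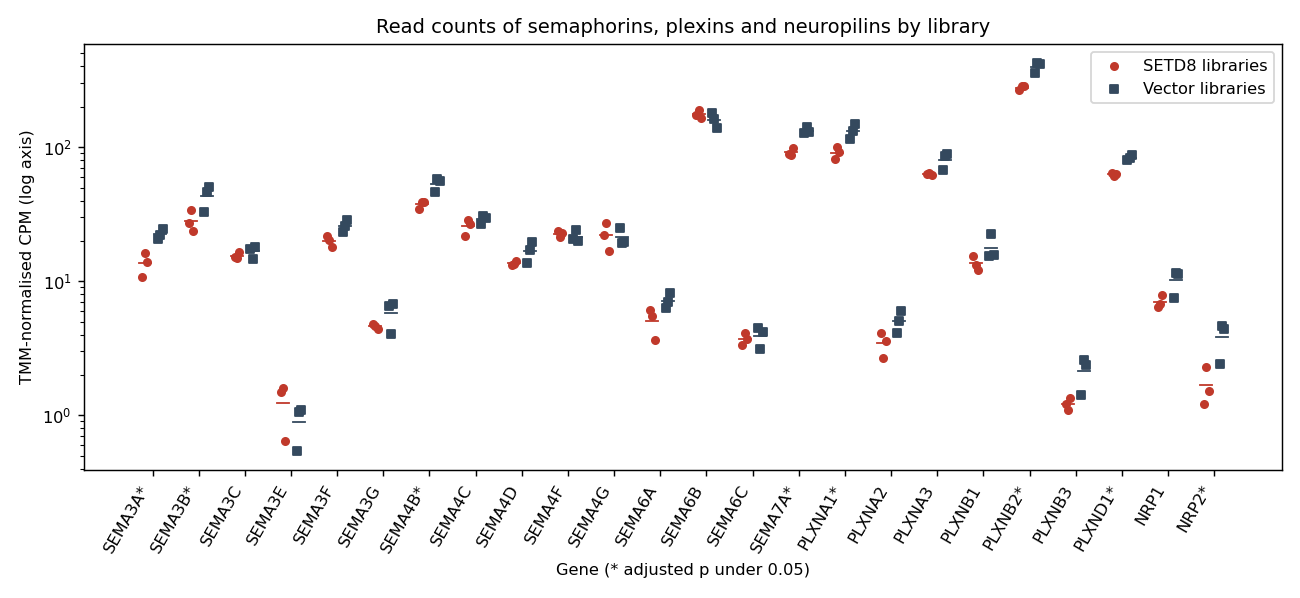
TMM-normalised CPM (log axis) of the 24 tested members in each of 3 SETD8 libraries (circles, left) and 3 Vector libraries (squares, right), with the mean as a line and called genes starred. PLXNB2 and SEMA6B had the most reads, and all 8 starred genes had lower means in SETD8 libraries.

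Plexins, the receptors, fell by the most reads. Summed over all 9 genes, plexin reads were 496, 526 and 519 CPM in SETD8 replicates 1, 2 and 3, against 644, 753 and 763 CPM in Vector replicates 1, 2 and 3. The groups did not overlap, and the log2 ratio of the means was -0.49. PLXNB2 held 54.2% of these reads in SETD8 libraries and 55.4% in Vector libraries. Summed semaphorin reads averaged 481 CPM in SETD8 libraries and 561 CPM in Vector libraries (log2 ratio -0.22). Neuropilin reads averaged 8.7 and 14.0 CPM, SETD8 libraries first, a larger fall in ratio than that of plexins (-0.68).

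PLXNB2, a receptor for class 4 semaphorins on chromosome 22 (50274979 to 50307627, ENSG00000196576), had 266, 284 and 285 CPM in SETD8 replicates 1, 2 and 3, against 359, 422 and 416 CPM in Vector replicates 1, 2 and 3. Every SETD8 library lay below every Vector library. The means were 278 ± 10.6 CPM in SETD8 libraries and 399 ± 34.8 CPM in Vector libraries (SD, n = 3 each; log2 fold change -0.52, SE 0.09, adjusted p = 0.00809).

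PLXNA1, which pairs with neuropilins to receive class 3 semaphorins, lies on chromosome 3 (126988594 to 127037392, ENSG00000114554). It had 81.5, 99.6 and 92.3 CPM in SETD8 replicates 1, 2 and 3, against 116, 131 and 148 CPM in Vector replicates 1, 2 and 3. SETD8 and Vector values did not overlap, and Vector replicate 3 was highest. The log2 fold change was -0.53 (SE 0.11, adjusted p = 0.0145).

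PLXND1, a receptor that binds SEMA3E without a neuropilin, lies on chromosome 3 (129555175 to 129606818, ENSG00000004399). It had 64.3, 60.5 and 62.8 CPM in SETD8 replicates 1, 2 and 3, against 79.7, 83.3 and 86.7 CPM in Vector replicates 1, 2 and 3. The spread within each group was small (SD 1.91 and 3.49 CPM), and the log2 fold change was -0.41 (SE 0.08, adjusted p = 0.016).

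The other tested plexins had lower means in SETD8 libraries and did not pass the test. PLXNA3, which also partners neuropilins, had 63.1, 63.9 and 61.7 CPM in SETD8 replicates 1, 2 and 3, against 67.6, 86.0 and 88.2 CPM in Vector replicates 1, 2 and 3. Its groups did not overlap, and the value just missed the threshold (log2 fold change -0.36, SE 0.11, adjusted p = 0.054). PLXNA2, a receptor of SEMA6A, averaged 3.44 ± 0.7 CPM in SETD8 libraries and 5.08 ± 0.925 CPM in Vector libraries (log2 fold change -0.56, 95% interval -1.20 to 0.08, adjusted p = 0.143). PLXNB1, the receptor of SEMA4D, averaged 13.7 ± 1.68 CPM and 17.8 ± 4.01 CPM in SETD8 and Vector libraries (log2 fold change -0.38, interval -0.83 to 0.08, adjusted p = 0.163). Its groups overlapped, with Vector replicate 2 alone at 22.4 CPM. PLXNB3, a receptor of SEMA5A, averaged 1.21 ± 0.125 CPM in SETD8 libraries and 2.12 ± 0.624 CPM in Vector libraries (log2 fold change -0.81, interval -1.74 to 0.12, adjusted p = 0.148). PLXNB3 shares 1432 of its 7007 exonic bases with SRPK3 on the same strand, which had at most 5 counts in a library, so its value is uncertain. Intervals use the 4 residual degrees of freedom of the libraries, whereas the edgeR test also borrows information on spread across genes. Intervals are therefore wider than that test implies, as for PLXNA2 (unadjusted p = 0.0292).

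The neuropilins had few reads. NRP2, which binds SEMA3F and lies on chromosome 2 (205681990 to 205798133, ENSG00000118257), had 1.22, 2.28 and 1.51 CPM in SETD8 replicates 1, 2 and 3, against 2.4, 4.64 and 4.38 CPM in Vector replicates 1, 2 and 3. These values rested on 23, 44 and 26 counts in SETD8 replicates 1, 2 and 3, and on 44, 93 and 76 in Vector replicates 1, 2 and 3. The groups did not overlap, although SETD8 replicate 2 and Vector replicate 1 were close. The log2 fold change of -1.18 (SE 0.32, adjusted p = 0.0427) was 2.27-fold lower, and the call was lost with limma-voom (adjusted p = 0.0591) and with length correction (adjusted p = 0.054).

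NRP1, which binds SEMA3A and VEGF, had 6.46, 6.78 and 7.85 CPM in SETD8 replicates 1, 2 and 3, against 7.52, 11.5 and 11.4 CPM in Vector replicates 1, 2 and 3. SETD8 replicate 3 lay above Vector replicate 1, so the groups overlapped. NRP1 did not pass the test (log2 fold change -0.53, SE 0.19, adjusted p = 0.0953).

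Secreted class 3 semaphorins summed to 81.3, 91.5 and 77.8 CPM in SETD8 replicates 1, 2 and 3, against 102, 114 and 130 CPM in Vector replicates 1, 2 and 3. Of 7 class 3 genes, 6 were tested and 2 fell, where 4.75% of all tested genes were called lower. SEMA3A, the classical axon repellent that signals through NRP1, lies on chromosome 7 (83955777 to 84492724, ENSG00000075213). It had 10.8, 16.3 and 14.0 CPM in SETD8 replicates 1, 2 and 3, against 20.5, 22.2 and 24.4 CPM in Vector replicates 1, 2 and 3. No SETD8 library reached a Vector library, and SETD8 replicate 1 was lowest (log2 fold change -0.71, SE 0.15, adjusted p = 0.0181).

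SEMA3B, studied as a candidate tumour suppressor on the short arm of chromosome 3 (50267558 to 50277546, ENSG00000012171), had 27.3, 33.7 and 23.8 CPM in SETD8 replicates 1, 2 and 3, against 33.1, 46.1 and 50.6 CPM in Vector replicates 1, 2 and 3. It was the single called member whose groups overlapped, because SETD8 replicate 2 lay above Vector replicate 1. The log2 fold change was -0.61 (SE 0.16, adjusted p = 0.0375), and the call was lost with library totals (adjusted p = 0.0541) and with GC correction (adjusted p = 0.054).

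SEMA3F, the ligand of NRP2, had 21.6, 20.4 and 17.9 CPM in SETD8 replicates 1, 2 and 3, against 23.4, 25.9 and 28.5 CPM in Vector replicates 1, 2 and 3. Its groups did not overlap, yet it did not pass (log2 fold change -0.38, SE 0.12, adjusted p = 0.0759). SEMA3C, a secreted semaphorin bound by both neuropilins, averaged 15.5 ± 0.951 CPM in SETD8 libraries and 16.6 ± 1.72 CPM in Vector libraries (log2 fold change -0.10, interval -0.46 to 0.26). SEMA3G averaged 4.6 ± 0.173 CPM and 5.76 ± 1.49 CPM in SETD8 and Vector libraries (log2 fold change -0.32, interval -0.92 to 0.29). SEMA3E, the ligand of PLXND1, had a positive log2 fold change of 0.48 at 1.24 ± 0.525 CPM in SETD8 libraries and 0.896 ± 0.305 CPM in Vector libraries, with an interval of -0.74 to 1.70. SEMA3C, SEMA3G and SEMA3E did not pass (adjusted p = 0.655, 0.377 and 0.52).

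Membrane-spanning class 4 semaphorins summed to 115, 129 and 120 CPM in SETD8 replicates 1, 2 and 3, against 132, 149 and 145 CPM in Vector replicates 1, 2 and 3. Among 5 tested class 4 genes 1 fell, where 4.75% of all tested genes were called lower. SEMA4B, on chromosome 15 (90160604 to 90229679, ENSG00000185033), had 34.6, 38.7 and 39.1 CPM in SETD8 replicates 1, 2 and 3, against 46.4, 57.6 and 56.2 CPM in Vector replicates 1, 2 and 3. All SETD8 values lay below all Vector values (log2 fold change -0.51, SE 0.11, adjusted p = 0.0176).

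The other class 4 genes overlapped between groups. SEMA4D, the ligand of PLXNB1, averaged 13.6 ± 0.51 CPM in SETD8 libraries and 16.8 ± 2.93 CPM in Vector libraries (log2 fold change -0.30, interval -0.70 to 0.10, adjusted p = 0.201). SEMA4C, a ligand of PLXNB2, averaged 25.6 ± 3.65 CPM and 28.9 ± 1.97 CPM in SETD8 and Vector libraries (log2 fold change -0.17, interval -0.52 to 0.17, adjusted p = 0.402). SEMA4F and SEMA4G had log2 fold changes of 0.071 (interval -0.26 to 0.40, adjusted p = 0.745) and 0.051 (interval -0.41 to 0.52, adjusted p = 0.877). SEMA4G shares 1170 of its 5253 exonic bases with MRPL43 on the opposite strand, which had 1705 to 2028 counts in SETD8 libraries and 1169 to 1679 in Vector libraries. No source used here says whether counting used the strand, so SEMA4G is uncertain.

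Class 6 semaphorins, ligands of type A plexins, held no called gene. SEMA6B had 174, 188 and 164 CPM in SETD8 replicates 1, 2 and 3, against 181, 161 and 139 CPM in Vector replicates 1, 2 and 3. The groups overlapped, and Vector replicate 3 was lowest (log2 fold change 0.14, interval -0.15 to 0.42, adjusted p = 0.424). It made up 36.5% of all semaphorin reads in SETD8 libraries and 28.5% in Vector libraries. SEMA6A had 6.09, 5.49 and 3.66 CPM in SETD8 replicates 1, 2 and 3, against 6.27, 6.99 and 8.12 CPM in Vector replicates 1, 2 and 3. SEMA6A did not overlap between groups and did not pass (log2 fold change -0.48, SE 0.21, adjusted p = 0.167), and SEMA6C had a log2 fold change of -0.067 (interval -0.68 to 0.55, adjusted p = 0.879).

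SEMA7A, the lipid-anchored semaphorin that binds integrins and PLXNC1, had the lowest adjusted p of the family. It lies on chromosome 15 (74409289 to 74433958, ENSG00000138623). SEMA7A had 89.3, 87.4 and 98.2 CPM in SETD8 replicates 1, 2 and 3, against 127, 142 and 130 CPM in Vector replicates 1, 2 and 3. SETD8 and Vector libraries were fully separate (log2 fold change -0.54, SE 0.09, adjusted p = 0.00692). Its plexin receptor PLXNC1 had 4 to 12 counts in a library and was not tested.

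Genes below the filter on low counts were PLXNA4, PLXNC1, SEMA3D, SEMA4A, SEMA5A, SEMA5B and SEMA6D, none above 12 counts in any library. SEMA5A and SEMA6D had 0 counts in each library, where 3 counts, the limit that a count of 0 allows, correspond to 0.15 to 0.17 CPM (counting error only). PLXNC1 had 8, 8 and 7 counts in SETD8 replicates 1, 2 and 3 and 8, 4 and 12 in Vector replicates 1, 2 and 3. Expression of SEMA5A, the ligand of PLXNB3, was thus not detectable at this depth.

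**Figure D2:**
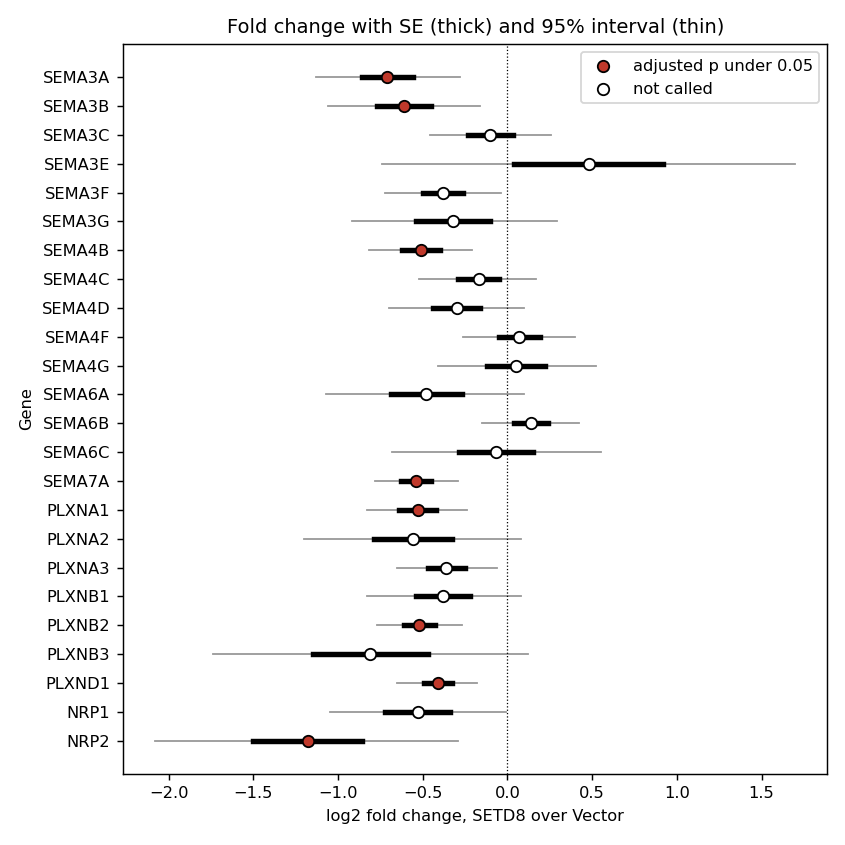
Log2 fold change, SETD8 over Vector, of the 24 tested members, with the SE as a thick bar and the 95% interval as a thin bar, and red points for adjusted p under 0.05. Points for 20 genes lie left of 0 and 4 lie right of it, namely SEMA3E, SEMA4F, SEMA4G and SEMA6B, none of them called.

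Of the 24 tested members, 20 had a negative log2 fold change. The groups did not overlap in 12 members with SETD8 lower and in 0 with SETD8 higher, against 15.9% and 14.4% of all tested genes. The members had longer merged exons than other genes, with a median of 7132 bases against 4745 bases over all tested genes, and a higher GC content (median 59.6% against 49.0%). Correcting each library for its trend with exon length left 7 of the 24 called lower, against 5.07% of all genes, and correcting for GC content left 7, against 6.09%. With these corrections 0 members were higher, against 3.61% and 4.43% of all genes. Length correction gave log2 fold changes of -1.01 for NRP2, -0.39 for PLXNA1, -0.45 for PLXNB2 and -0.3 for PLXND1. It gave -0.6 for SEMA3A, -0.58 for SEMA3B, -0.45 for SEMA4B and -0.59 for SEMA7A. Except for SEMA7A, these changes were smaller in size than those without correction.

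Other ways of scaling, filtering and testing gave 7 to 10 lower members and 0 higher. DESeq2-type size factors called 8 lower (background 4.77% lower, 3.4% higher), and library totals called 7 (background 3.51% lower, 5.51% higher). With no low-count filter 10 of 29 were lower, NRP1 and PLXNA3 being added (background 3.83% lower, 3.46% higher), and with a stricter filter 8 of 23 (background 5.56% lower, 3.76% higher). DESeq2 called 9 lower, PLXNA3 being added (background 6.31% lower, 5.14% higher), limma-voom 7 (background 4.32% lower, 3.26% higher) and the fit with the replicate block 8 (background 4.49% lower, 3.7% higher).

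Divided by exon length, PLXNB2, SEMA6B and SEMA7A stood highest. PLXNB2 was at 38.4 ± 1.47 CPM per kilobase in SETD8 libraries and 55.0 ± 4.79 in Vector libraries (SD, n = 3 each). SEMA6B was at 39.8 ± 2.73 CPM per kilobase in SETD8 libraries and 36.2 ± 4.76 in Vector libraries, and SEMA7A at 24.1 ± 1.51 and 35 ± 2.14. In Vector libraries PLXNB2 was above SEMA6B in every library, while SEMA6B was not above SEMA7A in every library. PLXNA1 followed at 8.33 ± 0.836 CPM per kilobase in SETD8 libraries and 12.0 ± 1.42 in Vector libraries, above PLXND1 in every Vector library. From PLXND1 down to SEMA4F, at 8.55 to 3.46 CPM per kilobase in Vector libraries, the range of each gene overlapped that of the next in the order. Compared library by library, PLXND1 was above SEMA4B, PLXNA3 above SEMA3F and SEMA3F above SEMA4C in every Vector library, whereas SEMA4B and SEMA3B, SEMA3B and PLXNA3, SEMA4C and SEMA4G, and SEMA4G and SEMA4F changed order. The neuropilins were low, NRP1 at 0.61 CPM per kilobase in SETD8 libraries and 0.881 in Vector libraries and NRP2 at 0.12 and 0.274. Exons of all isoforms were merged, so genes with long alternative exons are understated.

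**Figure D3:**
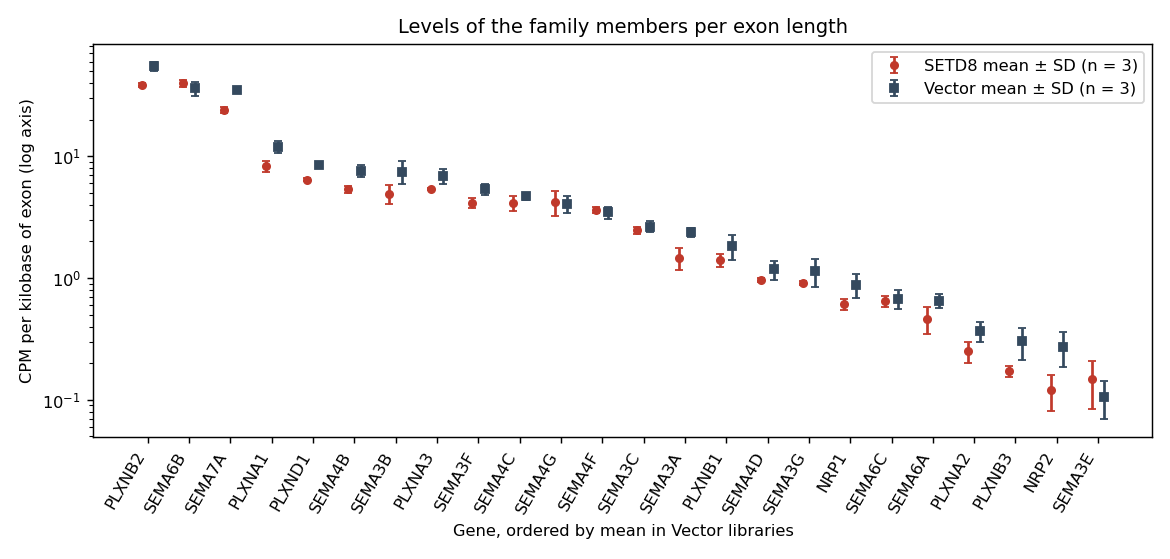
CPM per kilobase of merged exon (log axis) for the 24 tested members, ordered by their mean in Vector libraries, with SETD8 libraries as circles on the left and Vector libraries as squares on the right (mean ± SD, n = 3 each). PLXNB2, SEMA6B and SEMA7A have means of 24.1 CPM per kilobase or more in both groups, and NRP2 and SEMA3E lie lowest.

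The number of called members rested on single libraries. Without Vector replicate 1, 15 members were lower and 0 higher, against 11.8% and 12.0% of all genes, the added genes being NRP1, PLXNA2, PLXNA3, PLXNB1, PLXNB3, SEMA3F and SEMA4D. Without Vector replicate 2 or SETD8 replicate 1, 0 members were called by edgeR, where 0.32% and 0.0679% of all genes were called lower, and 0.17% and 0.00679% higher. At an unadjusted p under 0.05, 11 members were lower without Vector replicate 2, against 9.86% of all genes lower and 8.8% higher. At that threshold 13 were lower without SETD8 replicate 1, against 10.1% of all genes lower and 8.67% higher, and 0 members were higher in either case. Without Vector replicate 1, 16 members were lower and 1 higher at the same threshold, and the shares over all genes were not computed there. Without SETD8 replicate 2 the calls were PLXNA1, PLXNB2 and SEMA3A (background 0.749% lower, 0.306% higher), and without SETD8 replicate 3 the single call was SEMA7A (background 0.568% lower, 0.305% higher). Without Vector replicate 3, 6 remained, NRP2 and SEMA3B being lost (background 4.38% lower, 3.06% higher). The log2 fold changes of the 8 genes stayed negative whichever library was left out, from -0.59 to -0.47 for PLXNB2, from -0.59 to -0.48 for SEMA7A and from -1.48 to -1.0 for NRP2.

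**Figure D4:**
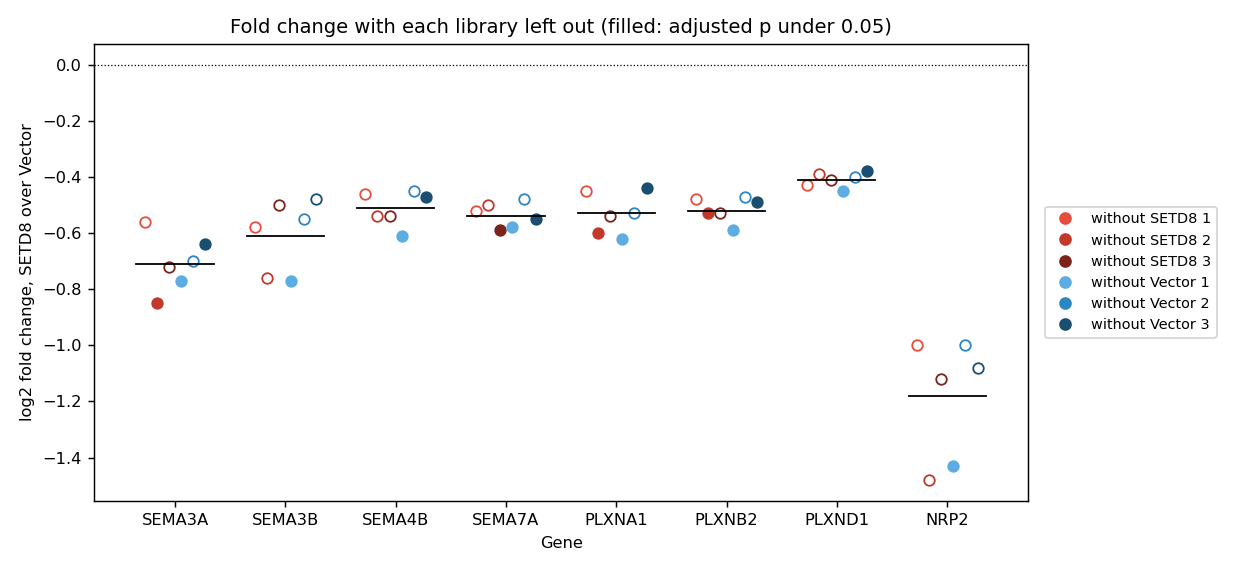
Log2 fold change, SETD8 over Vector, of the 8 genes that fell, with each library left out in turn (red tones, SETD8 libraries; blue tones, Vector libraries), filled where the adjusted p stayed under 0.05, and the value with all libraries as a line. All points lie below 0, and those without Vector replicate 1 are all filled.

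Genes that act with the family were listed in 6 groups of 76 genes in all, of which 62 were tested, 7 were called lower (11.3%) and 0 higher, against 4.75% lower and 3.08% higher of all tested genes. Among these 62 genes 21 were lower and 5 higher at an unadjusted p under 0.05, against 13.8% and 12.3% of all tested genes. DESeq2 called 1 of them higher and limma-voom 0, against 5.14% and 3.26% of all genes. The 1 was VEGFB, a ligand of the VEGF family, named after its value was seen. The 62 genes had a median log2 fold change of -0.18. The lists were chosen with earlier results of these data known, so these shares are no independent test. Of 10 collapsin response mediator, MICAL and MICAL-like genes, some of which carry plexin signals to the cytoskeleton, 9 were tested and 2 fell. The actin-oxidising enzyme gene MICAL2 had 136, 131 and 145 CPM in SETD8 replicates 1, 2 and 3, against 192, 206 and 217 CPM in Vector replicates 1, 2 and 3 (log2 fold change -0.58, SE 0.08, adjusted p = 0.00492). The groups did not overlap, as was the case for DPYSL3, a collapsin response mediator protein gene (log2 fold change -0.35, adjusted p = 0.0331). DPYSL3 lost its call with library totals (adjusted p = 0.0515).

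Of 19 co-receptor genes, 11 were tested and 3 fell, where 4.75% of all tested genes were called lower. L1CAM, an adhesion molecule that joins NRP1 in the SEMA3A receptor, had 58.6, 60.5 and 54.0 CPM in SETD8 replicates 1, 2 and 3, against 76.4, 75.8 and 76.8 CPM in Vector replicates 1, 2 and 3 (log2 fold change -0.40, adjusted p = 0.0181). MST1R, a receptor tyrosine kinase that associates with type B plexins, and SDC4, a heparan sulfate proteoglycan, had log2 fold changes of -0.44 (adjusted p = 0.043) and -0.39 (adjusted p = 0.0247), and in L1CAM, MST1R and SDC4 the groups did not overlap. MST1R lost its call with library totals (adjusted p = 0.0526). MET, the related kinase, had 248, 267 and 231 CPM in SETD8 replicates 1, 2 and 3, against 247, 315 and 370 CPM in Vector replicates 1, 2 and 3, and did not pass (log2 fold change -0.32, adjusted p = 0.124). ERBB2 (log2 fold change -0.10, adjusted p = 0.473) and GIPC1, which binds the NRP1 tail (log2 fold change 0.15, adjusted p = 0.356), did not pass either. Of the VEGF receptor genes, KDR had 0 counts in each library and FLT1 at most 1.

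Of 19 GTPase genes and regulators, 18 were tested and FARP1, an exchange factor, fell (log2 fold change -0.55, adjusted p = 0.0128). FARP1 lost its call with length correction (adjusted p = 0.0696). With that correction the log2 fold change was -0.25 for FARP1, -0.36 for MICAL2 and -0.51 for SDC4. The change was smaller in size than without correction for FARP1 and MICAL2 and larger for SDC4. CDC42, the one not tested, had 4 to 11 counts, and 2055 of its 3598 exonic bases are shared on the same strand with the gene AL031281.2, so its value cannot be read as a level. Of 13 kinase and effector genes, all tested, 1 fell. Single calls among 18 GTPase genes and regulators and among 13 kinase and effector genes are near the 4.75% of all tested genes called lower. None of 4 tested VEGF and HGF ligands was called, VEGFA having a log2 fold change of -0.31 (adjusted p = 0.196), and none of 7 tested proteases that process semaphorins. Of the 7 calls in the 6 lists, 7, 6, 6 and 6 were lost without SETD8 replicate 1, 2 or 3 and Vector replicate 2. In that order, 0.0679%, 0.749%, 0.568% and 0.32% of all genes were called lower. MICAL2 was the one kept in the last 3 cases. All 7 were kept without Vector replicate 1 or 3, where 11.8% and 4.38% of all genes were called lower.

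**Figure D5:**
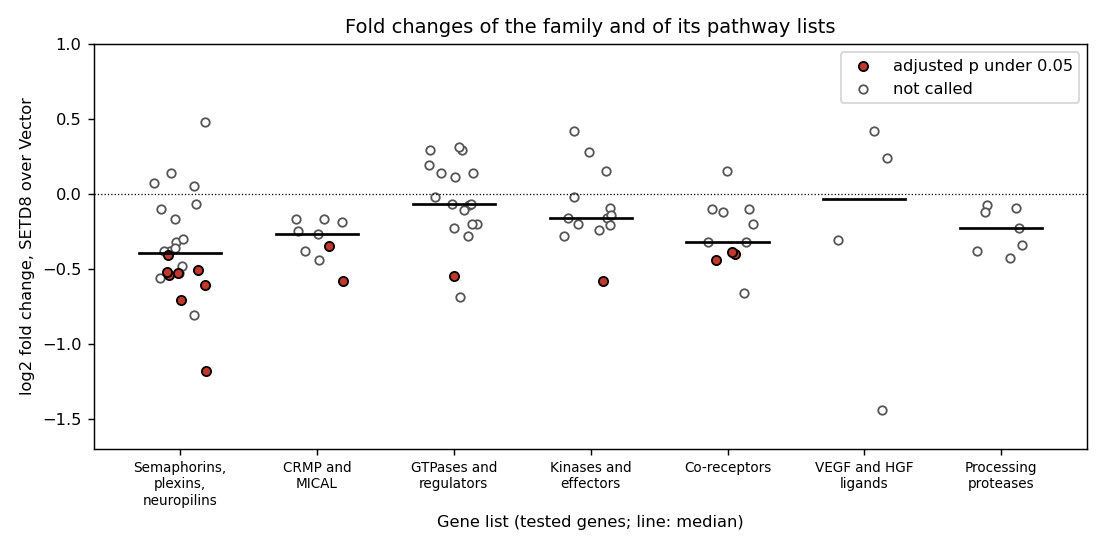
Log2 fold changes, SETD8 over Vector, of the tested family members and of tested genes in 6 lists of genes that act with them, with red points for adjusted p under 0.05 and a line at each list's median. Medians were -0.4 for the family, -0.27 for collapsin response mediators and MICALs and -0.32 for co-receptors, against -0.07 for GTPases and regulators.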

How the data were processed

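The deposited table holds the authors' whole-number read counts per Ensembl gene ID, not normalised. Per the labels' protocols, poly(A)-selected libraries were made with a strand-marking kit. Tools named in the submitters' processing notes are STAR, HISAT2, HTSeq and featureCounts, with the builds hg38 and GRCh38; no source used here gives their roles, the annotation or how strand was treated. Columns named NC were taken as the Vector group, the only group other than SETD8, and the number as the replicate. All 58735 IDs matched GENCODE 29, and 0 columns belonged to other samples.

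Counts were filtered with filterByExpr (14370 genes kept), scaled by TMM and compared, without covariates, with edgeR 4.0.16 (robust quasi-likelihood test, limma 3.58.1, R 4.3.3), adjusted by Benjamini-Hochberg over all genes tested. SE is the log2 fold change divided by the root of F. CPM was scaled by TMM (prior count 2 on the log scale). The family and the lists were chosen with earlier results of these data known. Every family member is named, with called list genes (1 of them is not reported here) and 7 set list genes (MET, MST1R, ERBB2, KDR, FLT1, VEGFA, GIPC1). Alternatives were other size factors, library totals, no or a stricter filter (1 CPM), DESeq2 1.42.0, limma-voom, a replicate block, length and GC corrections (lowess span 0.3) and leaving out each library. The edgeR script was tested on simulated data, where small changes were often missed and unchanged genes made up more of the calls than the threshold of 0.05 allows, so calls close to it are the least certain. RefSeq windows were found for 27 of 31 members. Figures were drawn with matplotlib 3.10.9.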

Additional observations from a re-analysis of the deposited data

How the results depend on the processing

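With no low-count filter 1051 genes were lower and 949 higher, against 682 and 443. Library totals gave 505 lower and 792 higher genes, and DESeq2 called 739 higher. The family count was 7 to 10 lower and 0 higher under the alternatives that kept all libraries, against 8 and 0. With the replicate block, 645 genes were lower and 532 higher, 8 family members were lower, and DPYSL3 lost its call (adjusted p = 0.0537). Same-numbered libraries did not deviate together (correlations 0.0247, 0.00778 and -0.0637), so the numbers were not taken as pairs. Of 62 tested pathway genes, 11 were lower with no filter and 11 with DESeq2, against 7. All genes were lower in 3.83%, 6.31% and 4.75%, in that order. Library totals called 2 pathway genes higher (RRAS2, VEGFB), against 5.51% of all genes. No filter called 4 higher (CFL1, FES, RRAS, VEGFB), against 3.46% of all genes. DESeq2 (VEGFB), length correction (RAP1B) and GC correction (VEGFB) called 1 higher each, against 5.14%, 3.61% and 4.43% of all genes. The main test called 0 higher, against 3.08% of all genes. The higher genes were named after their values were seen. Leaving out 1 library gave 10 to 1738 lower and 1 to 1771 higher genes, 0 to 15 lower family members, and 0 to 21 lower and 0 to 6 higher pathway genes; the cause was not tested. Signs changed, far from the threshold, for SEMA4G without SETD8 replicate 2 (-0.13) and Vector replicates 2 and 3 (-0.0035 and -0.0027; highest 0.21, without SETD8 replicate 3), SEMA6C without SETD8 replicate 1 and Vector replicate 1 (0.0095 and 0.037; lowest -0.2, without Vector replicate 2) and ERBB2 with length correction (0.022). NRP2, PLXNB3, SEMA3E and SEMA6C rested on at most 93 counts a library, which limits their precision.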
